A study of Mus musculus with 4 samples.

Results

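The genes described here are 10 that make cysteine from methionine, make and recycle glutathione, or carry the NRF2 response: *Cbs*, *Cth*, *Gclc*, *Gclm*, *Gss*, *Gsr*, *Txnrd1*, *Nfe2l2*, *Hmox1* and *Nqo1*. They were taken by symbol from the 32286 features of the count matrices, and all 10 were found. They were measured by single-nucleus RNA-seq on nuclei of the hippocampus and cortex, taken from mice aged 5 weeks. Of the 4 libraries, 2 were labelled Sel1L fl/fl (floxed Sel1L) and 2 Sel1L SynCre (floxed Sel1L with Cre under the Synapsin I promoter, which is active in neurons), each from 1 mouse on a C57BL/6J background. SEL1L is the partner of the ubiquitin ligase HRD1 in endoplasmic reticulum (ER)-associated degradation (ERAD). Unique molecular identifiers (UMIs) were counted, 1 per captured RNA molecule, and levels are counts per 1000000 UMIs of the same nuclei (CPM). After filtering, 6801 to 11105 nuclei and 66436503 to 101224188 UMIs per library remained, and pairs of libraries shared 9 to 28 cell barcodes.

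In the transsulfuration pathway, cystathionine β-synthase (CBS) joins homocysteine and serine, and cystathionine γ-lyase (CTH) splits the product to give cysteine. Glutamate-cysteine ligase, with the catalytic subunit GCLC and the modifier subunit GCLM, joins cysteine to glutamate, and glutathione synthetase (GSS) adds glycine. Glutathione reductase (GSR) and thioredoxin reductase 1 (TXNRD1) return oxidized glutathione and thioredoxin to their reduced forms. NRF2, encoded by *Nfe2l2*, is kept low by KEAP1 and turns on antioxidant genes such as *Gclm*, *Txnrd1*, *Hmox1* (heme oxygenase 1) and *Nqo1* (a quinone reductase). ATF4 is translated when eIF2α is phosphorylated, as in ER stress, and turns on genes of amino acid import and synthesis. *Cth* is a known ATF4 target, and *Slc7a11*, the cystine importer of system xc-, is a known target of both factors.

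The labels were checked first. Transcripts of the Cre transgene, counted as a feature of their own, gave 415, 0, 234 and 217 UMIs in replicates 1 and 2 labelled Sel1L fl/fl and then in both replicates labelled Sel1L SynCre, the order used for every set of 4 values here. The replicate 1 library labelled Sel1L fl/fl thus carried Cre transcripts at 4.1 CPM against 3.5 and 3.27 in the libraries labelled Sel1L SynCre, which goes against its label. *Sel1l* itself stood at 97, 90.1, 155 and 128 CPM, and the 3′ counts of a whole gene do not show whether the floxed part is lost. *Derl3*, an ERAD component induced by ER stress, stood at 0.484, 0.586, 16.6 and 10.2 CPM, so the library with Cre transcripts and a Sel1L fl/fl label lay with the other Sel1L fl/fl library. Replicate 1 of each label was male and replicate 2 female by *Xist* and *Ddx3y*, so a replicate block is also a block on sex. Groups below are named by their labels, and results are also given without that replicate where it changes them.

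Of the neuron clusters, 11 were named as subtypes by marker genes, a single cluster per name, and each is called by its markers (Pvalb-like and so on). The other neuron clusters were left without a subtype name and are in no subtype count. They held 2417, 1721, 1948 and 1759 of the 7278, 5367, 5425 and 5446 neuron-like nuclei. Neuron-, astrocyte-, oligodendrocyte-, oligodendrocyte precursor (OPC)- and endothelial-like classes were also formed. A further cluster with microglia markers was left unnamed because its nuclei were shallow (median 1834 UMIs) and 0 of these markers were among its most enriched genes. Endothelial-like nuclei were also shallow (median 2126 UMIs) but were named, with 3 markers among their most enriched genes.

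Short stretches of promoter are shown as examples of genes of the NRF2 and ATF4 groups whose promoter holds the motif searched for that group, with the motif in capitals. They are RefSeq sequences on GRCm38.p6, written 5′ to 3′ along the gene's strand. TGACNNNGC is the core of the antioxidant response element, the site of NRF2 with small MAF proteins. TGATGNAA is the core of the composite C/EBP and ATF site, and both motifs were searched on both strands, from 250 bases before to 50 bases after the start.
*Nfe2l2*, chr2:75704850-75704913, minus strand: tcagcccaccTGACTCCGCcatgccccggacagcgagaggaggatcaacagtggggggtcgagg
*Gclm*, chr3:122245378-122245476, plus strand: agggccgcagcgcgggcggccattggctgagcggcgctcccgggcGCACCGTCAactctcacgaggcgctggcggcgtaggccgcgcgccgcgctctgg
*Slc7a11*, chr3:50443608-50443724, minus strand: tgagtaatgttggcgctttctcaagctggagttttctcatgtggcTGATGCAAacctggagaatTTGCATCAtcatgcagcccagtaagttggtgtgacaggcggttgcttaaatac
*Trib3*, chr2:152344011-152344091, minus strand: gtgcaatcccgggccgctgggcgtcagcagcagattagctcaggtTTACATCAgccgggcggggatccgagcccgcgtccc
*Chac1*, chr2:119351004-119351101, plus strand: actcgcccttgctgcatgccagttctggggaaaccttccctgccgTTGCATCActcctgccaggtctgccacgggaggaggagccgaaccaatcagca

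Counted from the RefSeq start, the motif began 240 bases before *Nfe2l2*, 134 before *Gclm*, 193 before *Chac1* and at 66 and 47 before *Slc7a11*. In *Trib3* it began 15 bases after the RefSeq start. In the GENCODE vM21 annotation *Trib3* starts at chr2:152344032 on the minus strand, which places this motif before the gene. The transcribed part of the *Trib3* and *Nfe2l2* entries was not found in a GENCODE transcript. Of the 10 genes, 6 had a promoter entry (*Cbs*, *Gclm*, *Gss*, *Txnrd1*, *Nfe2l2* and *Nqo1*). TGACNNNGC was in 3 of these 6 (*Gclm*, *Nfe2l2* and *Txnrd1*), and TGATGNAA was in 0 of 6. These counts are per gene, with any promoter of the gene counted. Over all 27025 genes with an entry, TGACNNNGC was in 14% and TGATGNAA in 4.51%. Over all 32851 promoters of this length, TGACNNNGC was in 12.4% and TGATGNAA in 3.97%. In a list of 31 other NRF2-linked genes, 27 had an entry, and 12 of the 27 held TGACNNNGC while 0 held TGATGNAA. In a list of 36 other ATF4-linked genes, 30 had an entry, and 11 held TGATGNAA while 8 held TGACNNNGC. Of the 6 ATF4-linked genes named below, 5 had an entry, 2 held TGATGNAA (*Slc7a11* and *Trib3*) and 2 held TGACNNNGC (*Phgdh* and *Psph*). A match is a run of letters and not a measured binding site.

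Levels by class set the background for the genotype comparison. *Cbs* was an astrocyte gene in these nuclei, at 116, 159, 235 and 261 CPM in astrocyte-like nuclei. Its medians in the other classes were 5.38 CPM or lower, the range in astrocyte-like nuclei did not overlap that of the next class, and 79.6% of the UMIs in the 6 classes came from astrocyte-like nuclei. *Cth* was also highest in astrocyte-like nuclei, at 35.8, 58.9, 44.7 and 54 CPM, against a median of 5.4 in endothelial-like and 1.28 in neuron-like nuclei. The range of *Cth* in astrocyte-like nuclei did not overlap that of endothelial-like nuclei either.

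The glutathione synthesis genes were found in every class. *Gclc* ranged from a median of 36.5 CPM in OPC-like nuclei to 87.2 in the unnamed cluster, and each class overlapped its neighbour in that order. *Gclm* had a median of 56.7 in astrocyte-like nuclei, 40.8 in oligodendrocyte-like nuclei and 25 in neuron-like nuclei, and the oligodendrocyte-like range lay above the neuron-like one. *Gss* was highest in oligodendrocyte-like nuclei (median 61.6, range 44.8 to 75.3 CPM), and this range lay above that of astrocyte-like nuclei (median 26.9), which in turn lay above OPC-like nuclei (median 15.9) and neuron-like nuclei (median 14.9). Among neuron subtypes, *Gss* had its highest median in Pvalb-like neurons, at 38.6 CPM (range 30.8 to 43.2), and its lowest in L2/3 IT-like neurons, at 10.3 (9.11 to 11.4). Pvalb-like neurons overlapped Vip-like neurons, the next in order.

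*Gsr* and *Txnrd1* were also found in every class. Median *Gsr* ran from 22.2 CPM in the unnamed cluster to 37.8 in endothelial-like nuclei, and median *Txnrd1* from 14.6 in oligodendrocyte-like nuclei to 35.6 in endothelial-like nuclei. For *Nfe2l2* the median was 152 CPM in the unnamed cluster, 103 in endothelial-like, 64.6 in astrocyte-like, 34.6 in oligodendrocyte-like, 11 in OPC-like and 3.14 in neuron-like nuclei. Its ranges in neighbouring classes did not overlap, except between the unnamed cluster and endothelial-like nuclei. *Nqo1* had medians of 17 in endothelial-like and 10.9 in astrocyte-like nuclei against 1.02 in neuron-like nuclei, and *Hmox1* stayed at a median of 3.98 or lower in every class. The *Nqo1* range in endothelial-like nuclei was wide (2.69 to 23.6 CPM) and overlapped that of astrocyte-like nuclei (7.16 to 16.8). Endothelial-like nuclei also held summed vascular leptomeningeal or mural markers at 1094 to 1849 CPM and astrocyte markers at 483 to 865.

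**Figure D1:**
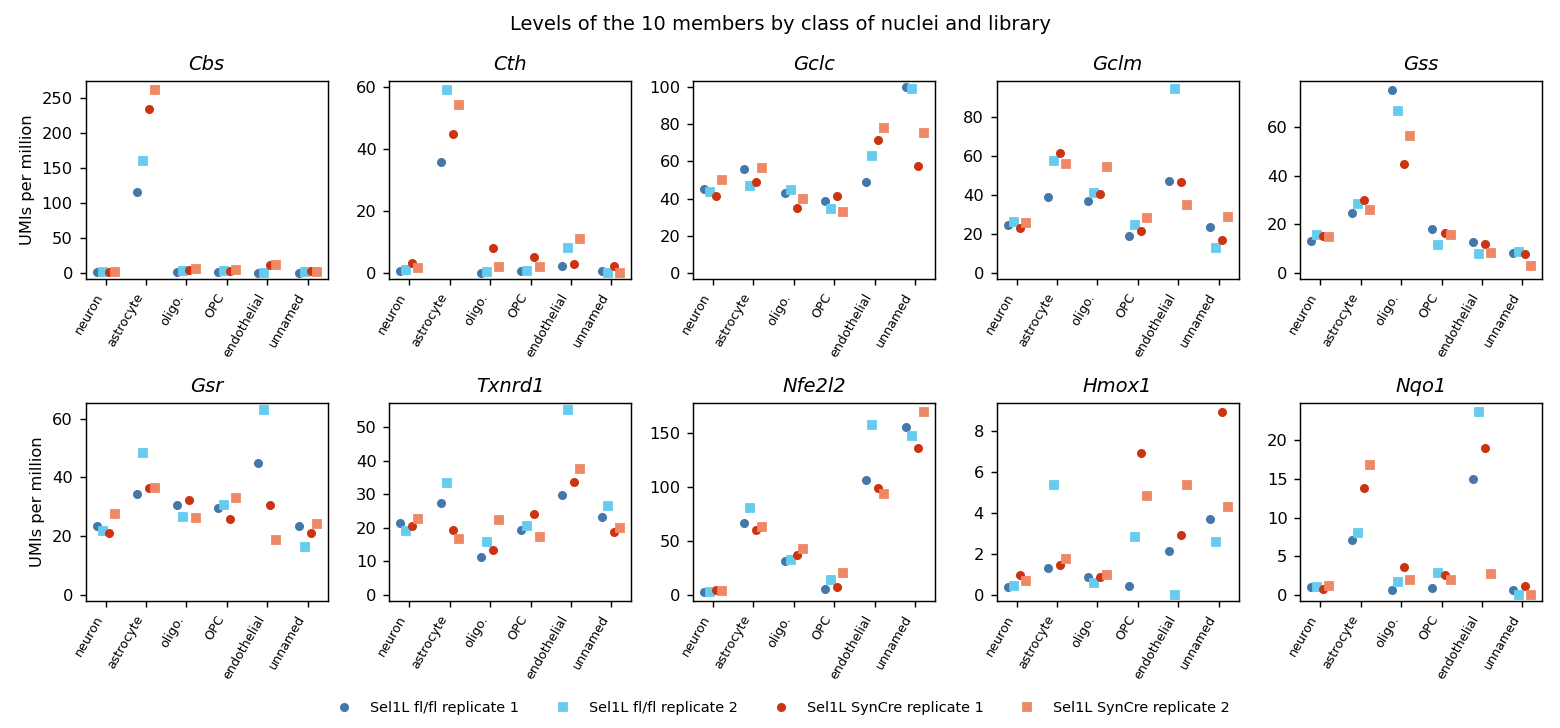
Levels of the 10 genes (CPM, linear axis) in neuron-, astrocyte-, oligodendrocyte (oligo.)-, OPC- and endothelial-like nuclei and in the unnamed cluster with microglia markers, 1 point per library. Cbs and Cth stand highest in astrocyte-like nuclei, at 116 to 261 and 35.8 to 58.9 CPM, Gss in oligodendrocyte-like nuclei, and Nfe2l2 in the unnamed cluster.

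The genotype comparison asked which of these genes differed in neurons between the labels. UMIs were summed per subtype and library and tested with the quasi-likelihood F test of edgeR, with Benjamini-Hochberg adjustment over all genes of the subtype and a threshold of 0.05. Of the 110 pairs of a gene and a subtype, 65 passed the filter on low counts, so the untested pairs are those with few UMIs. *Cth* in Pvalb- and Sst-like neurons and *Nfe2l2* in Sst-like neurons rose in the libraries labelled Sel1L SynCre. These are 3 of 65 tested pairs, while 1.15% of the 139602 pairs over all genes were called higher and 0.881% lower. A pair that passed the filter through the group in which it is high had to differ, so the share is not set against the background. All 3 called pairs were of this kind, as only their libraries labelled Sel1L SynCre reached the filter's level. Their p-values below follow a filter that drew on the same difference, and are no independent support for it. By edgeR, 0 of the 65 were called lower, with 8 higher and 1 lower at an unadjusted p under 0.05. The share of all genes at that unadjusted threshold was not counted, here or below, so such counts have no background beside them. DESeq2 called 1 higher and 0 lower, and gave no adjusted p for *Cth* or *Nfe2l2* in Sst-like neurons. The share of all genes called by DESeq2 is likewise not given, here or below. The median log2 fold change over the 65 was 0.00905, and 34 were above 0. Over all genes the median was 0.00167.

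*Cth* lies at chr3:157894248-157925077 on GRCm38. It gave 2, 2, 96 and 34 UMIs in Pvalb-like neurons, which is 0.545, 0.823, 40.4 and 13.7 CPM. Both libraries labelled Sel1L SynCre lay above both others, and replicate 1 was the higher of the pair. The ratio of summed levels was 40.8, with an exact 95% counting interval of 15.6 to 152 that leaves out the spread between mice. The log2 fold change was 5.19 (SE 0.65, 95% interval 3.79 to 6.59, edgeR adjusted p = 0.000349), in a subtype in which 2.49% of genes were called higher. It was called when any 1 library was left out, with log2 fold changes of 4.22 to 5.77. At 40.4 CPM, the level in the replicate 1 library labelled Sel1L SynCre lay within the range of astrocyte-like nuclei (35.8 to 58.9). Summed astrocyte markers (5 of 5 detected) stood at 9.81, 10.7, 11.8 and 5.24 CPM in Pvalb-like neurons, against 2847 to 3061 in astrocyte-like nuclei.

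*Cth* gave 2, 4, 34 and 13 UMIs in Sst-like neurons, or 0.697, 2.15, 18.1 and 8.19 CPM. The labels again did not overlap. The ratio of summed levels was 10.7, with an exact 95% counting interval of 4.56 to 30.6. The log2 fold change was 3.24 (SE 0.59, 95% interval 2.01 to 4.47, edgeR adjusted p = 0.000997), where 4.86% of genes were called higher. Without the replicate 1 library labelled Sel1L SynCre the call was lost (log2 fold change 2.51, edgeR adjusted p = 0.121). Astrocyte markers stood at 6.62, 4.3, 12.8 and 7.56 CPM in Sst-like neurons. Endothelial markers, from the class with the next highest *Cth*, stood at 1.91, 2.47, 4.63 and 4.43 CPM in Pvalb-like and 2.79, 4.84, 6.38 and 10.7 in Sst-like neurons, higher under the Sel1L SynCre label in both. Summed choroid plexus markers were highest in the replicate 1 library labelled Sel1L SynCre, at 24.8, 18.5, 62.7 and 26.6 CPM in Pvalb-like and 33.8, 17.2, 66.4 and 51.7 in Sst-like neurons, and the part of these markers in the result was not tested.

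Shares of nuclei with a *Cth* UMI were also taken. In Pvalb-like neurons the shares were 0.667% (2 of 300), 0.897% (2 of 223), 28.1% (62 of 221, 95% Wilson interval 22.5 to 34.3) and 11.7% (25 of 214, 8.04 to 16.7), at median depths of 9724 to 10948 UMIs. In CA1-like neurons, where *Cth* gave 2 UMIs in all, they were 0.21%, 0%, 0% and 0.411% at 11256 to 12596 UMIs. By a floor of 3 counts, a share of 0% there allows up to 1.18% and 1.22%. With every nucleus thinned to 4000 UMIs in 1 random draw, the Pvalb-like shares were 0.683%, 0.922%, 14.6% and 5.19%, of 293, 217, 212 and 212 nuclei. The thinned share of the replicate 2 library labelled Sel1L SynCre (interval 2.92 to 9.05%) was above that of Sel1L fl/fl replicate 1 and overlapped that of replicate 2 (upper bounds 2.45% and 3.3%). Intervals cover counting error only.

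In the other neuron subtypes *Cth* was scarce. Lamp5-like neurons gave 0, 0, 5 and 3 UMIs, 3.47-fold the level of a floor of 3 counts over the Sel1L fl/fl libraries. That value leaves out the counting error of the Sel1L SynCre-labelled libraries. Summed OPC markers stood at 268, 199, 82.3 and 64.4 CPM in Lamp5-like neurons, lower under the Sel1L SynCre label. Only 3 of the 5 OPC markers were detected there, with *Cspg4* and *C1ql1* at 0, so the sum need not come from OPC RNA. The part of these markers in any difference in Lamp5-like neurons was not tested. DG-like neurons went the other way, with 14, 11, 4 and 2 UMIs (2.02, 2.51, 1.06 and 0.593 CPM). The ratio of the summed levels in DG-like neurons was 0.38, with an exact 95% counting interval of 0.128 to 0.949, and the gene did not pass the filter there. In L2/3 IT-like neurons, where it did, 10, 21, 8 and 16 UMIs gave a log2 fold change of -0.31 (95% interval -1.55 to 0.93). Over all neuron-like nuclei, *Cth* gave 55, 62, 195 and 96 UMIs, a log2 fold change of 1.52 and an edgeR adjusted p of 0.205.

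**Figure D2:**
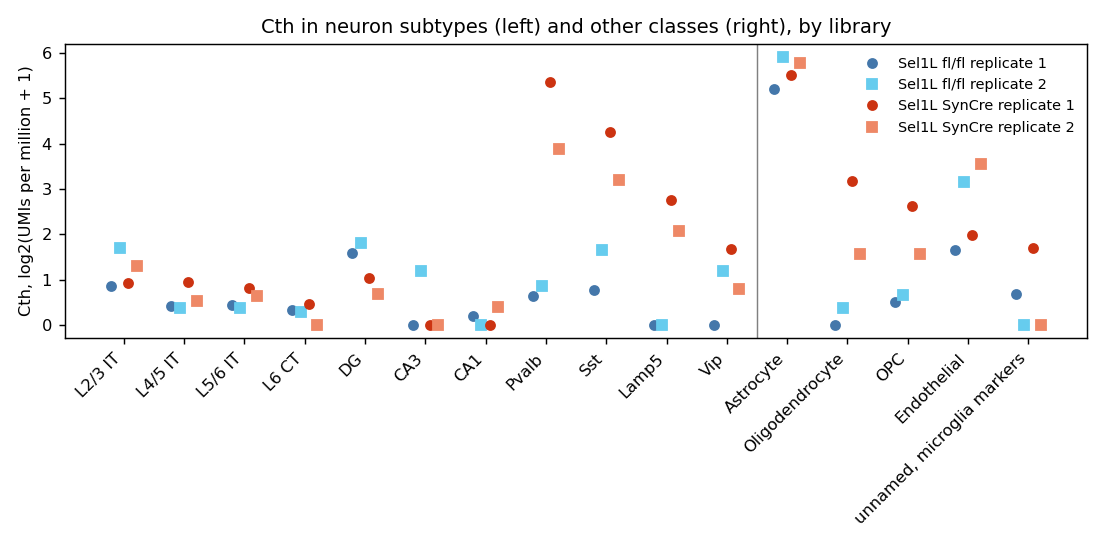
Level of Cth as log2(CPM + 1) in the 11 neuron subtypes, left of the line, and the 5 other classes, right of it, 1 point per library. The libraries labelled Sel1L SynCre stand apart in Pvalb- and Sst-like neurons (40.4 and 13.7 against 0.545 and 0.823 CPM in Pvalb-like neurons), while the 4 libraries lie together in astrocyte-like nuclei. In oligodendrocyte- and OPC-like nuclei they also lie higher, on few UMIs.

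*Cbs*, the step before *Cth*, passed the filter on low counts in 0 of 11 subtypes. It gave 3, 3, 4 and 0 UMIs in Pvalb-like and 3, 0, 1 and 3 UMIs in Sst-like neurons, where *Cth* rose. Over all neuron-like nuclei *Cbs* gave 87, 54, 71 and 47 UMIs, with a log2 fold change of -0.01 (95% interval -0.75 to 0.73). In astrocyte-like nuclei it gave 178, 119, 646 and 295 UMIs, or 116, 159, 235 and 261 CPM. Both libraries labelled Sel1L SynCre were higher there, but the difference missed the threshold (log2 fold change 0.83, SE 0.19, edgeR adjusted p = 0.103). Choroid plexus markers in the same nuclei stood at 729.6, 276, 1973 and 1633 CPM, and their part in this difference was not tested.

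The difference of the *Cth* effect between subtypes was tested by an interaction. Against CA1-like neurons, which hold 2 *Cth* UMIs in all, the difference was 4.68 on the log2 scale for Pvalb-like neurons (edgeR adjusted p = 0.507; 3.11% of genes called) and 2.78 for Sst-like neurons (0.715; 3.78%). Against Vip-like neurons it was 3.71 (0.361) and 1.75 (0.698), where 2.25% and 3.08% of genes were called. With DG-like neurons, a reference taken after their *Cth* counts were seen to go the other way, the differences were 6.62 and 4.73, given as a description with no test. Between classes, the effect in neuron-like minus that in astrocyte-like nuclei was 1.44 for *Cth* (edgeR adjusted p = 0.0246) and -0.875 for *Cbs* (0.033), where 2.03% of genes were called.

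The 3 genes of glutathione synthesis were tested in all 11 subtypes and called in 0 by edgeR and by DESeq2. At an unadjusted p under 0.05, 2 of the 33 pairs were higher and 1 lower. Of all pairs, edgeR called 1.15% higher and 0.881% lower, so 0 calls in 33 pairs is near that share. *Gclc* gave 171, 113, 106 and 139 UMIs in Pvalb-like neurons (46.6, 46.5, 44.6 and 56 CPM), and the labels overlapped. In Sst-like neurons it stood at 53, 37.6, 50 and 52.9 CPM. Its log2 fold changes over the subtypes ran from -0.20 to 0.22, and the 95% intervals from -0.55 to 0.54, so a change of *Gclc* as large as those called for *Cth* lay outside the intervals in every subtype.

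*Gclm* gave 86, 66, 48 and 31 UMIs in Sst-like neurons (30, 35.5, 25.5 and 19.5 CPM), lower in both libraries labelled Sel1L SynCre. This log2 fold change of -0.60 (95% interval -1.08 to -0.12) missed the threshold after adjustment (edgeR adjusted p = 0.117). In CA1-like neurons *Gclm* had its highest log2 fold change, 0.49 (edgeR adjusted p = 0.447). The effect in Sst-like minus that in CA1-like neurons was -1.08 (SE 0.27, edgeR adjusted p = 0.0164), and against Vip-like neurons it was -0.24 (0.794). Of all genes, 3.78% and 3.08% were called in these comparisons, in that order. In Pvalb-like neurons *Gclm* stood at 21.3, 30.9, 24.4 and 24.2 CPM, with a log2 fold change of -0.15. *Gclm* overlaps *Gm17494* on the opposite strand, and how strands were counted is not given in the sources used here.

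*Gss* had log2 fold changes from -0.54 to 1.11 over the subtypes. The highest was in Lamp5-like neurons, with 13, 10, 22 and 20 UMIs (8.84, 11.3, 25.1 and 21.5 CPM). The labels did not overlap there, as for the OPC markers in the same neurons, but the edgeR adjusted p was 0.203. In Pvalb-like neurons *Gss* stood at 30.8, 43.2, 41.2 and 35.9 CPM, a log2 fold change of 0.00905 (95% interval -0.42 to 0.44). The effect on *Gss* in neuron-like minus that in oligodendrocyte-like nuclei was 0.72 (edgeR adjusted p = 0.034), where 2.35% of genes were called. *Gss* shares its locus with *Acss2*, *Gssos1* and *Gssos2* on the opposite strand.

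The 2 reductases were called in 0 of 11 subtypes each by edgeR and by DESeq2, with 1 higher and 0 lower of 22 pairs at an unadjusted p under 0.05. With 1.15% of all pairs called higher and 0.881% lower by edgeR, 0 calls in 22 pairs is near that share. *Txnrd1*, a common readout of NRF2, gave 87, 65, 76 and 97 UMIs in Pvalb-like neurons (23.7, 26.8, 32 and 39.1 CPM). Both libraries labelled Sel1L SynCre were above both others, with a log2 fold change of 0.43 (SE 0.20, edgeR adjusted p = 0.287). In Sst-like neurons *Txnrd1* stood at 29.6, 30.6, 35.6 and 41.6 CPM, a log2 fold change of 0.27 (95% interval -0.15 to 0.69). *Txnrd1* overlaps *Gm38560* and *Gm47073* on the opposite strand. Over the 11 subtypes *Txnrd1* ran from -0.33 to 0.43 and *Gsr* from -0.37 to 0.43. The highest *Gsr* value, in Sst-like neurons, came from 20.9, 18.8, 25 and 32.8 CPM (edgeR adjusted p = 0.323).

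*Nfe2l2* was tested in 7 subtypes and had a positive log2 fold change in 6. The gene lies at chr2:75675513-75704641. In Sst-like neurons it gave 9, 6, 35 and 9 UMIs (3.14, 3.22, 18.6 and 5.67 CPM). The replicate 1 library labelled Sel1L SynCre stood far above the other 3. The log2 fold change was 1.87 (SE 0.52, edgeR adjusted p = 0.0277). Without that library it was 0.72 (edgeR adjusted p = 0.784), and with nuclei marked as doublets kept it was 1.25 (edgeR adjusted p = 0.213). The call was also lost without either Sel1L fl/fl library, at 1.88 (edgeR adjusted p = 0.136) without replicate 1 and 1.85 (edgeR adjusted p = 0.0839) without replicate 2. In Pvalb-like neurons 9, 12, 29 and 17 UMIs gave 1.36 (edgeR adjusted p = 0.122), and in L5/6 IT-like neurons 10, 6, 16 and 21 UMIs gave 1.38 (edgeR adjusted p = 0.262). Summed microglia or macrophage markers, which also mark the unnamed cluster where *Nfe2l2* was highest, stood at 50.9, 81.7, 73.9 and 62.4 CPM in Sst-like neurons, with no separation of the labels. Endothelial markers stood at 2.79, 4.84, 6.38 and 10.7 CPM and astrocyte markers at 6.62, 4.3, 12.8 and 7.56, both higher in the libraries labelled Sel1L SynCre, and their part in the result was not tested.

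**Figure D3:**
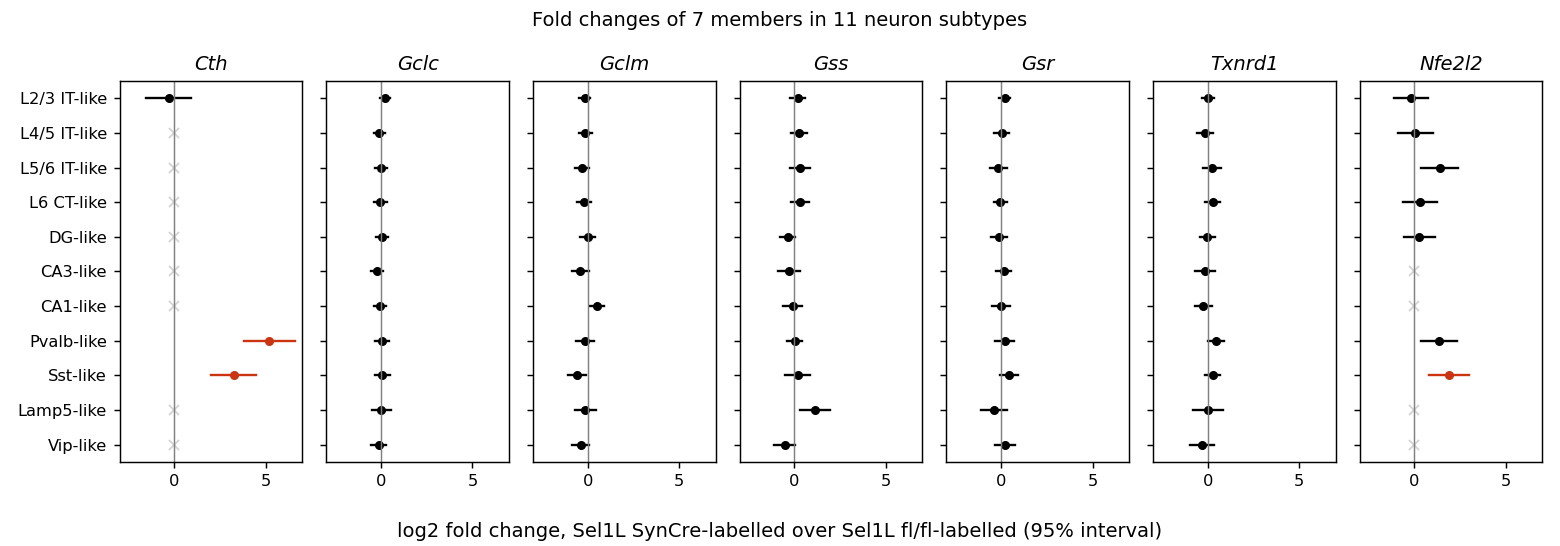
Log2 fold changes (point) with 95% intervals (line) of 7 of the 10 genes in each of 11 neuron subtypes, red where the edgeR adjusted p is under 0.05 and a grey cross where the gene was not tested. Only Cth in Pvalb- and Sst-like neurons and Nfe2l2 in Sst-like neurons are red, while Gclc lies between -0.20 and 0.22 in all 11 subtypes.

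*Hmox1* and *Nqo1*, the classical NRF2 targets among the 10, passed the filter on low counts in 0 of 11 subtypes. *Hmox1* gave 1, 1, 6 and 9 UMIs in Sst-like neurons, and the ratio of summed levels was 10.2 with an exact 95% counting interval of 2.38 to 92.2. In Lamp5-like neurons it gave 0, 0, 5 and 5 UMIs, 4.34-fold the level of the same floor, with the same counting error left out. L4/5 IT-like neurons gave 2, 1, 7 and 6 UMIs (ratio 5.62, interval 1.54 to 30.8). In every other subtype the interval held 1. The ratios there ran from 0.554 (0.00939 to 10.6) in L6 CT-like to 4.39 (0.837 to 43.35) in Pvalb-like neurons. These counting intervals leave out the spread between mice. Over all neuron-like nuclei 35, 27, 59 and 43 UMIs of *Hmox1* gave 0.94 on the log2 scale (edgeR adjusted p = 0.317).

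Counts of *Nqo1* were low under both labels. In Sst-like neurons it gave 4, 3, 5 and 2 UMIs, in Pvalb-like neurons 2, 3, 3 and 8, and in DG-like neurons 16, 9, 7 and 7. Over all neuron-like nuclei 88, 64, 48 and 70 UMIs gave a log2 fold change of -0.14 (95% interval -0.81 to 0.52).

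Outside the subtypes, edgeR called 0 of 41 tested pairs of a gene and a class (5 higher and 3 lower at an unadjusted p under 0.05), and DESeq2 called 1, *Cth* in neuron-like nuclei. The background of genes called in either direction was 0.178% in neuron-like, 0.458% in astrocyte-like, 1.03% in oligodendrocyte-like, 8.41% in OPC-like, 0% in endothelial-like and 0.0468% in the unnamed nuclei. *Cth* in astrocyte-like nuclei had a log2 fold change of 0.07 (95% interval -0.52 to 0.67). In oligodendrocyte-like nuclei *Cth* gave 0, 1, 9 and 2 UMIs. The ratio of summed levels was 52.6, with an exact 95% counting interval of 7.65 to 2266 that leaves out the spread between mice. In those nuclei *Derl3* gave 2, 2, 44 and 7 UMIs, while Cre gave 2, 0, 0 and 0. In astrocyte-like nuclei *Nqo1* stood at 7.16, 8.03, 13.8 and 16.8 CPM (log2 fold change 0.97, edgeR adjusted p = 0.374). *Txnrd1* stood at 27.3, 33.5, 19.2 and 16.8 CPM there (log2 fold change -0.72, edgeR adjusted p = 0.353).

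Lists of further genes, chosen with earlier results of these data known, placed the 10 in their pathways. As for the 10, a pair can pass the filter through the libraries in which the gene is high (*Trib3* was tested in 4 subtypes and called in 4), so the lists' counts and medians are descriptions, and the shares over all genes printed beside them are not a test. Of 250 tested pairs of the 31 other NRF2-linked genes, 5 rose (2%) and 0 fell, where 1.15% of all pairs were called higher (13 higher and 8 lower at an unadjusted p under 0.05, and 0 higher or lower by DESeq2), with a median log2 fold change of -0.02. Of these calls, 4 were in Sst-like neurons, where 4 of 23 tested genes rose beside 4.86% of all genes. They were *Prdx6* (a peroxiredoxin; 56, 29, 61 and 61 UMIs, log2 fold change 0.89), *Ftl1* (ferritin light chain, 0.87), *Abcc4* (an efflux transporter, 1.45) and *Bach1* (a repressor at NRF2 sites, 0.79). *Prdx6* also rose in Pvalb-like neurons, by 0.74. With any 1 library left out, 1 or 2 pairs were called higher.

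Of 308 tested pairs of the 36 other ATF4-linked genes, 87 rose (28.2%) and 0 fell (176 higher and 4 lower at an unadjusted p under 0.05, and 60 higher and 0 lower by DESeq2). Of all pairs, 1.15% were called higher and 0.881% lower by edgeR. The median log2 fold change of the 308 pairs was 0.67, and 31 of the 33 genes tested were called in at least 1 subtype. By subtype, 31 of 33 tested ATF4-linked genes rose in Sst-like (4.86% of all genes), 17 of 28 in DG-like (2.1%), 15 of 32 in Pvalb-like (2.49%), 13 of 32 in L4/5 IT-like (1.23%) and 6 of 28 in Lamp5-like neurons (0.781%). In L2/3 IT-, CA1- and Vip-like neurons the count was 0 by edgeR and 1, 0 and 0 by DESeq2. At an unadjusted p under 0.05, 4, 1 and 2 were higher and 2, 1 and 1 lower. The median log2 fold changes of the list in these subtypes were 0.11, -0.11 and -0.03. Of all genes, 0.163%, 0.0161% and 0.00874% were called higher in these 3 subtypes. The count over all subtypes was 82 without the replicate 1 library labelled Sel1L fl/fl and 57 without the replicate 1 library labelled Sel1L SynCre.

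The ATF4-linked genes called in the most subtypes were *Ddit3* (the stress factor CHOP, 8 subtypes), *Slc7a11*, *Psph* (serine synthesis) and *Slc7a5* (a large neutral amino acid transporter, 5 each), and *Trib3* (a pseudokinase) and *Phgdh* (serine synthesis, 4 each). *Slc7a3* and *Slc7a1* were also called in 4, and the tie was settled by the larger median log2 fold change over the subtypes. *Slc7a11* gave 9, 12, 326 and 185 UMIs in Sst-like neurons and 22, 22, 308 and 106 in Pvalb-like neurons. Its log2 fold changes were 4.92 (SE 0.28) and 3.48 (SE 0.44), with edgeR adjusted p of 9.39e-10 and 0.000383. *Trib3* gave 3, 4, 58 and 24 UMIs in Sst-like neurons (log2 fold change 3.83) and 6, 5, 81 and 25 in Pvalb-like neurons (3.5). *Phgdh* gave 10, 5, 59 and 33 UMIs in Sst-like neurons (2.94). *Ddit3* gave 22, 16, 164 and 112 UMIs in Sst-like neurons (3.20) and 34, 19, 154 and 71 in DG-like neurons (2.67). For each of these, both libraries labelled Sel1L SynCre were above both others. *Ddit3*, *Psph*, *Slc7a5* and *Slc7a11* overlap genes on the opposite strand.

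In DG-like neurons 17 ATF4-linked genes rose, *Phgdh* by 1.38 (39, 22, 71 and 34 UMIs), while *Cth* gave 14, 11, 4 and 2 UMIs. *Slc1a4*, an importer of serine and neutral amino acids, rose by 2.03 in DG-like neurons (39, 30, 120 and 68 UMIs).

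Among 22 other genes of methionine, cysteine and sulfide metabolism, 13 of 147 tested pairs rose (8.84%) and 1 fell, with a median of 0.11. Of all pairs, 1.15% were called higher and 0.881% lower. At an unadjusted p under 0.05 by edgeR, 26 pairs of the list were higher and 5 lower, and DESeq2 called 9 higher and 0 lower. Of the 13, all but 1 were amino acid transporters: *Slc7a11* in 5 subtypes, *Slc1a4* in 4 and *Slc3a2*, the heavy chain of system xc-, in 3. The other was *Got1* (an aspartate aminotransferase) in Sst-like neurons, at 0.61. *Slc1a1*, the neuronal glutamate and cysteine transporter, fell by 0.58 on the log2 scale in Pvalb-like neurons (497, 304, 195 and 250 UMIs, edgeR adjusted p = 0.0393), where 2.21% of all genes were called lower. This call was lost under DESeq2 (adjusted p = 0.112), with thinned sums (edgeR adjusted p = 0.208), without the replicate 1 library labelled Sel1L fl/fl (edgeR adjusted p = 0.0908) and without the replicate 1 library labelled Sel1L SynCre (edgeR adjusted p = 0.335). Without the replicate 1 library labelled Sel1L fl/fl, 3 pairs of the list were called lower. Leaving out the genes shared with the ATF4 list, 5 of 128 pairs rose.

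Among 35 other genes of glutathione use and thioredoxin, 3 of 283 tested pairs rose (1.06%) and 0 fell, no more than the 1.15% of all pairs called higher (23 higher and 6 lower at an unadjusted p under 0.05, and 1 higher and 0 lower by DESeq2), with a median of 0.06. The 3 were *Chac1*, which breaks glutathione down, in L4/5 IT-like neurons (3, 1, 17 and 21 UMIs, log2 fold change 3.48) and Sst-like neurons (4, 5, 16 and 10 UMIs, 1.84), and its relative *Chac2* in Sst-like neurons (0.64). *Chac1* is also on the ATF4 list. Without the replicate 1 library labelled Sel1L fl/fl, 1 pair was called higher and 4 lower.

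**Figure D4:**
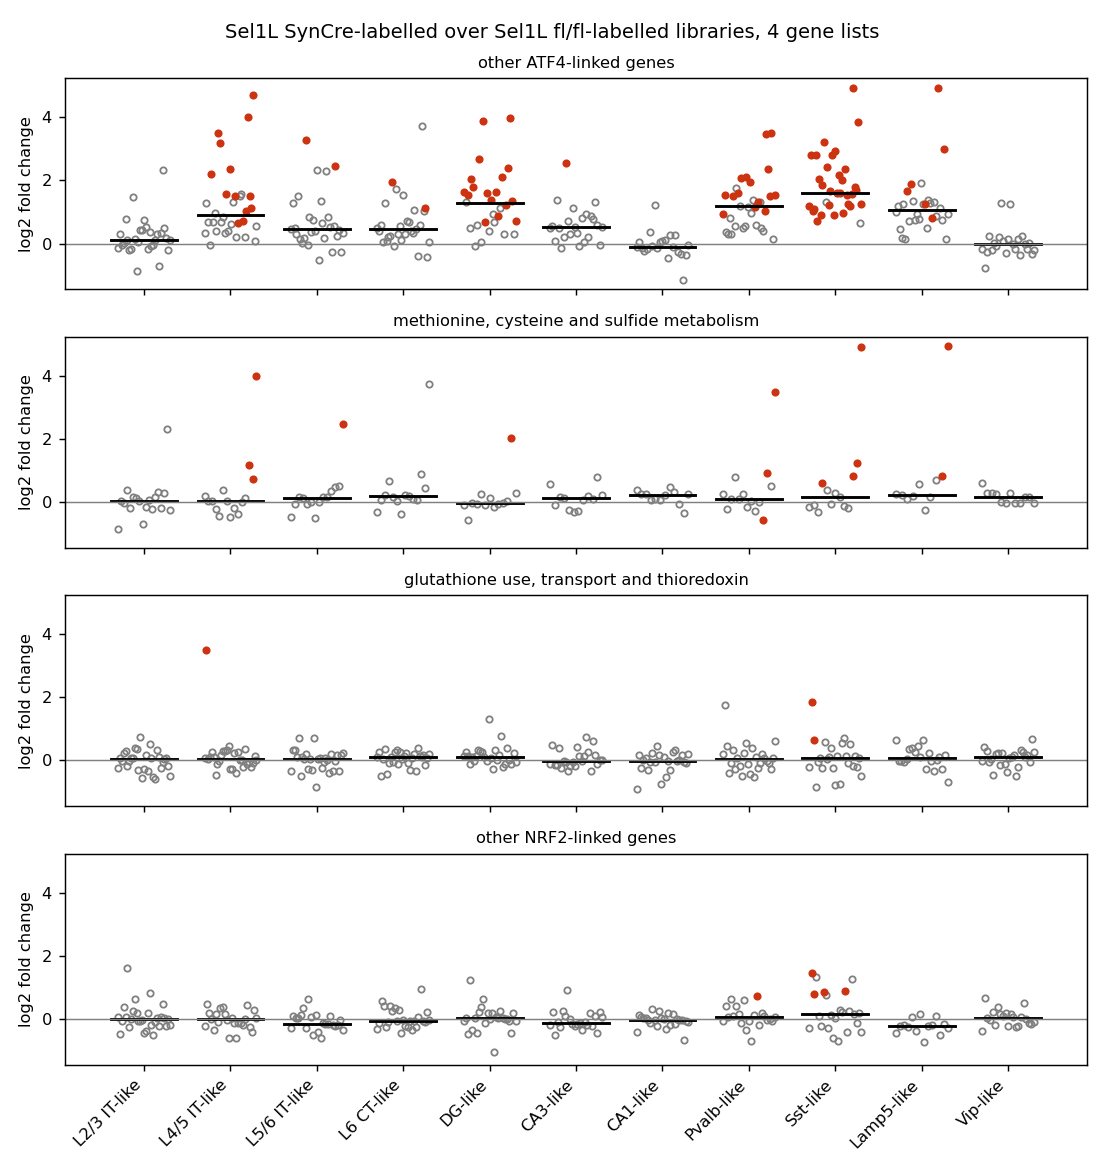
Log2 fold change of every tested gene of the 4 lists (1 point per gene) in each of 11 neuron subtypes, red where the edgeR adjusted p is under 0.05, with the list's median as a black bar. The median of the ATF4-linked list reaches 1.6 in Sst-like and 1.27 in DG-like neurons, while the NRF2-linked medians stay between -0.21 and 0.15.

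In OPC-like nuclei, 26 of 31 tested ATF4-linked genes rose, with a median of 2.00, where 3.56% of all genes were called higher. Cre gave 32, 0, 20 and 12 UMIs and *Derl3* 1, 3, 25 and 13 in those nuclei. Markers of immature oligodendrocytes summed to 2113, 2065, 926 and 866 CPM there and those of mature oligodendrocytes to 2933, 2336, 348 and 212, so the class differed in make-up between the labels. In clusters made without integration, a cluster with markers of immature oligodendrocytes, of 106, 63, 7 and 3 nuclei, lay apart from OPC-like nuclei. In the OPC-like nuclei of those clusters 25 of 29 tested ATF4-linked genes were called higher. Of 21 NRF2-linked genes tested in OPC-like nuclei, 2 rose and 2 fell (*Prdx6* and *Ugdh* higher, *Taldo1* and *Tkt* lower, where 4.86% of all genes were called lower), but 0 of 21 were called by edgeR in the clusters made without integration and 0 by DESeq2. *Cth* gave 1, 1, 6 and 2 UMIs.

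Within the libraries labelled Sel1L SynCre, nuclei with and without a *Derl3* UMI were compared, as a description. Pooled over the 11 subtypes, *Cth* in CPM was 5.62-fold higher with *Derl3* in replicate 1 (exact 95% counting interval 4.08 to 7.76) and 3.98-fold in replicate 2 (2.38 to 6.54). The ratios in replicates 1 and 2 were 2.81 (2.02 to 3.87) and 1.69 (1.03 to 2.68) for *Nfe2l2*, 1.47 (1.21 to 1.77) and 1.41 (1.13 to 1.75) for *Gss*, and 1.25 (1.05 to 1.5) and 1.25 (1.04 to 1.5) for *Txnrd1*, with all 6 intervals above 1. *Hmox1* had 5.03 (2.69 to 9.38) and 1.73 (0.583 to 4.31), and *Nqo1* 2.39 (1.01 to 5.31) and 1.88 (0.837 to 3.82). The ratios were 1.12 and 0.968 for *Gclc*, 1.06 and 0.91 for *Gclm* and 1.03 and 1.02 for *Gsr*, with intervals that held 1, and 6.91 and 6.48 for *Slc7a11*. Subtypes differ in both genes, and within Pvalb-like neurons the ratio of *Cth* was 0.727 (0.477 to 1.11) and 1.01 (0.478 to 2.1). Within Sst-like neurons the ratio of *Cth* was 2.94 (1.19 to 8.67) and 2.29 (0.641 to 10.2). For Pvalb-like neurons the ratios were 0.988 and 0.897 for *Nfe2l2*, 1.1 and 1.25 for *Gss* and 0.775 and 1.16 for *Txnrd1*. All 6 of these intervals held 1. For Sst-like neurons they were 2.12 and 0.291 for *Nfe2l2*, 0.378 (0.185 to 0.745) and 0.927 for *Gss*, and 1.06 and 0.752 for *Txnrd1*. Of these, only the printed interval did not hold 1. In DG-like neurons the intervals of these genes held 1. *Hmox1* within Sst-like neurons had ratios of 1.26 (0.18 to 13.9) and 0.128 (0.00287 to 0.951), from few UMIs. The ratios of *Slc7a11* were 1.05 (0.831 to 1.33) and 1.61 (1.08 to 2.41) within Pvalb-like neurons. Within Sst-like neurons they were 1.84 (1.43 to 2.39) and 1.53 (1.13 to 2.08). Pooled over the subtypes, median depths with and without a *Derl3* UMI were 9804 and 10000 UMIs in replicate 1 and 10080 and 10130 in replicate 2. Within Pvalb-, Sst- and DG-like neurons, nuclei with a *Derl3* UMI were deeper in both replicates. Their medians were 10370 against 8929 and 11620 against 10210 UMIs in Pvalb-like neurons. In Sst-like neurons they were 9298 against 8880 and 9681 against 8458, and in DG-like neurons 7740 against 6740 and 7595 against 7186. In nuclei thinned to 4000 UMIs, *Derl3* was read again from the thinned counts, so the 2 kinds of nuclei are not the same as before. Those with a *Derl3* UMI fell from 593 to 305 in replicate 1 and from 422 to 209 in replicate 2. The thinned pooled ratios of *Cth* were 2.9 (1.44 to 5.48) and 10.8 (4.35 to 25.8), the latter from 10 UMIs with and 15 without *Derl3*. Within Sst-like neurons the thinned ratios were 0.596 (0.0588 to 3.33) and 1.9 (0.295 to 9.77). Thinned pooled intervals held 1 for *Gss* in replicates 1 and 2 (0.828 to 1.925 and 0.902 to 2.525). In replicate 2 they also held 1 for *Nfe2l2* (0.597 to 4.88) and *Txnrd1* (0.881 to 1.98). In replicate 1 they stayed above 1 for *Nfe2l2* (2.04 to 6.77) and *Txnrd1* (1.01 to 2.16). The thinned pooled ratios of *Hmox1* were 0.718 (0.017 to 4.72) and 2.95 (0.318 to 13.5). Those of *Nqo1* were 6.28 (1.62 to 21.8) and 1.48 (0.168 to 6).

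Over the 44 sums of 11 subtypes in 4 libraries, the genes most like *Cth* among 15429 were *Nbas* (Golgi-to-ER transport, Pearson r 0.84), *Atf3* (a stress transcription factor, 0.823), *Gm38575* (0.823), *Ostn* (osteocrin, 0.808) and *Wars* (tryptophanyl-tRNA synthetase, 0.804). The points share libraries and depth, so r is a description. *Nbas* gave 330, 206, 702 and 531 UMIs in Pvalb-like neurons. Of the other members, r with *Cth* was 0.719 for *Nfe2l2*, 0.548 for *Txnrd1*, 0.513 for *Gss*, 0.227 for *Gclc*, 0.0636 for *Gsr* and -0.0391 for *Gclm*.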

How the data were processed

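Per the labels, nuclei of 4 mice, 2 per label, were sorted after propidium iodide staining and made into 10x Genomics 3′ libraries. The authors deposited raw UMI counts per gene and nucleus, made with Cell Ranger 6.1.0 on GRCm38 by the submitters' processing notes. Whether introns or strand were counted is not given in the sources used here.

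Nuclei with over 600 genes and under 5% mitochondrial UMIs were kept, and doublets were marked with Scrublet in scanpy 1.11.5 and left out (5.89% to 10.1% per library). Nuclei were integrated and clustered in Seurat 5.3.0 (17 dimensions, resolution 0.2, and 0.4 for neurons) and named from fixed markers. UMIs summed per library and cell type were tested in edgeR 4.0.16 (TMM, filterByExpr, quasi-likelihood F test, Benjamini-Hochberg), with DESeq2 1.42.0 as an alternative. In simulated Pvalb-like counts, 171 of 189 changed genes tested were recovered and 3 others were called. Changed genes were drawn above a minimum count and given the same size of change (median absolute log2 fold change 1.59). Every gene was given the same spread between libraries. Genes below that count, or with a larger spread between libraries, were thus not covered by these rates.

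With 2 libraries per label an exact permutation test cannot go below p = 0.333, so p-values rest on spread shared across genes. The members and lists were chosen with earlier results of these data known. Up to 6 genes per list were named, those called in the most subtypes. For *Cth*, the 5 genes with the highest r were named. Gene overlaps come from GENCODE vM21 (GRCm38). Further alternatives changed the scaling, the low-count filter, the prior count, the doublets, the cluster names, the depth and the libraries used.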

Additional observations from a re-analysis of the deposited data

Results flagged for a closer look

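Differences of the genotype effect between cell types passed the threshold for 4 of the 10 genes (*Cth*, *Cbs*, *Gclm* and *Gss*), each from an interaction term in edgeR with Benjamini-Hochberg adjustment over all genes. They are differences of log2 fold changes, Sel1L SynCre-labelled over Sel1L fl/fl-labelled. Several comparisons were tried per gene, so 4 of the 10 is not a share of tests. Of all genes, 2.03% were called for neuron-like against astrocyte-like nuclei and 2.35% for neuron-like against oligodendrocyte-like nuclei. For Sst-like against CA1-like neurons the share was 3.78%.

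The effect on *Cth* was larger in neuron-like than in astrocyte-like nuclei by 1.444 (SE 0.41, edgeR adjusted p = 0.0246), and DESeq2 gave an adjusted p of 0.56.

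The effect on *Cbs* in neuron-like minus astrocyte-like nuclei was -0.875 (SE 0.25, edgeR adjusted p = 0.033), with a DESeq2 adjusted p of 0.878. The effect on *Gclm* in Sst-like minus CA1-like neurons was -1.085 (SE 0.27, edgeR adjusted p = 0.0164), with a DESeq2 adjusted p of 0.723. The effect on *Gss* in neuron-like minus oligodendrocyte-like nuclei was 0.7184 (SE 0.21, edgeR adjusted p = 0.034), with a DESeq2 adjusted p of 1. *Gss* stood at 75.3, 66.8, 44.8 and 56.4 CPM in oligodendrocyte-like and 13.2, 15.7, 15.1 and 14.7 in neuron-like nuclei.

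Differences of the *Cth* effect from DG-like neurons were 6.617 for Pvalb-like and 4.734 for Sst-like neurons. DG-like neurons were taken as the reference after their *Cth* counts (14, 11, 4 and 2 UMIs) were seen to go the other way, so these values are a description with no test. Against CA1-like and Vip-like neurons the difference was not called.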

How the results depend on the processing

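The 3 calls among the members (all higher) became 1 under DESeq2, 5 with no filter on low counts and 1 with sums thinned to a common 875091 UMIs, and 1 to 4 with a library left out (0 lower in each). *Cth* in Pvalb-like neurons was called under every alternative run, with log2 fold changes of 4.22 to 5.77 with a library left out. *Cth* in Sst-like neurons ran from 2.51 to 4.03, the lowest without the replicate 1 library labelled Sel1L SynCre (edgeR adjusted p = 0.121), had no test when thinned, and had no adjusted p in DESeq2. *Nfe2l2* in Sst-like neurons ran from 0.72 to 2.45 with a library left out, was 1.25 (edgeR adjusted p = 0.213) with doublets kept, and had no adjusted p in DESeq2. Its call was lost without each library except the one labelled Sel1L SynCre replicate 2. A lone library in an arm is assumed to vary like the other arm.

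The 87 higher ATF4-linked calls became 44 when thinned and 57 to 114 with a library left out, and 1 lower call appeared with no filter. The 5 higher NRF2-linked calls became 0 under DESeq2, 2 with doublets kept, 1 when thinned and 1 to 2 with a library left out. Lower NRF2-linked calls were 1 with no filter and 0 to 2 with a library left out. The 3 higher glutathione calls became 1 under DESeq2, 1 when thinned and 1 to 5 with a library left out, with 0 to 4 lower calls (4 without the replicate 1 library labelled Sel1L fl/fl). The 13 higher sulfur calls became 7 when thinned and 9 to 16 with a library left out. The 1 lower sulfur call became 0 under DESeq2, 3 with no filter, 0 when thinned and 0 to 3 with a library left out. Over all genes, 2831 calls became 1666 under DESeq2, 6089 with no filter, 1468 when thinned and 2342 to 5969 with a library left out, the highest without the replicate 2 library labelled Sel1L fl/fl.

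Pairs of a member and a subtype whose effect differed from that in CA1-like neurons numbered 1, against 0 with Vip-like neurons as the reference and 0 under DESeq2. The 1 was *Gclm* in Sst-like neurons, where 3.78% of all genes were called. With DG-like neurons, a reference chosen after seeing the data, the differences are a description and no calls are counted. For neuron-like nuclei against other classes, 3 became 0 under DESeq2. They were *Cth* and *Cbs* against astrocyte-like nuclei (2.03% of all genes called) and *Gss* against oligodendrocyte-like nuclei (2.35%).

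Replicate numbers are shared between the labels, and replicate 1 was male and replicate 2 female under both, so the replicate block is also a block on sex. With 2 pairs the numbers are not otherwise shown to pair the libraries, and same-numbered libraries' deviations correlated at 0.0777 to 0.23 over the subtypes. With the replicate block, *Cth* was 5.29 in Pvalb-like and 3.25 in Sst-like neurons, the member calls numbered 3, lower NRF2-linked calls 1, and calls over all genes 5312.

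Of 103 other tested pairs of a member and a cell type, 8 of 1186 settings gave a call. They were *Cbs* in astrocyte-like nuclei (0.83, adjusted p = 0.00333 with no filter, 1.07, adjusted p = 0.000521 without the replicate 2 library labelled Sel1L fl/fl), *Cth* in neuron-like nuclei (1.51, adjusted p = 0.0191 under DESeq2, 1.51, adjusted p = 0.0403 with no filter, 1.96, adjusted p = 0.0198 without the replicate 2 library labelled Sel1L SynCre) and *Nfe2l2* in Pvalb-like neurons (1.34, adjusted p = 0.027 with no filter, and in 2 settings with a library left out). Tested only with no filter, *Hmox1* in Sst-like neurons was 3.09, adjusted p = 0.0365 and *Cth* in oligodendrocyte-like nuclei 5.12, adjusted p = 0.00162. The other pairs of *Cbs*, *Hmox1* and *Nqo1* with a neuron subtype did not pass the low-count filter.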

Other observations

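Neuron-like nuclei given none of the 11 subtype names (1721 to 2417 per library) held few *Cth* UMIs, at 19, 15, 34 and 21, or 0.705, 0.75, 1.65 and 1.08 CPM. *Gclc* stood at 48.5, 45.2, 40.3 and 51.9 CPM in them and *Nfe2l2* at 3.04, 3.5, 4.96 and 4.39.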
